A study of Mus musculus with 12 samples.

Results

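The 10 genes described here code for splicing regulators of striated muscle and were followed through the growth of the mouse tibialis anterior (TA), a fast muscle of the lower leg. They are the muscleblind-like genes Mbnl1, Mbnl2 and Mbnl3, the CUGBP Elav-like genes Celf1 and Celf2, the RNA-binding Fox genes Rbfox1 and Rbfox2, the polypyrimidine tract-binding gene Ptbp1, and the RNA-binding motif genes Rbm24 and Rbm38. These 10 genes, of 55450 in the count table, were selected on their gene counts over the 12 libraries, in which several had been seen to change with age, so their age differences are described below without p-values. All 10 passed the filter on low counts, as did 19276 genes in all.

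RNA came from TA muscle of wild-type mice, labelled as the 129Pas strain and named 129SvPas in the methods of the study, at E18.5 (a late embryonic stage), 2 weeks and 7 weeks of age, with 4 mice at each age. No treatment or engineered allele is given for any group, and pooling of animals is not stated. Poly(A) RNA was sequenced, and reads were summed per gene, so all splice forms of a gene count together and inclusion of single exons was not measured. Library totals ran from 63018968 to 123449246 counts, and the members had between 1 and 48730 counts in a library.

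The regulators act on pre-mRNA during muscle maturation. MBNL proteins bind YGCY-type RNA elements and promote the adult pattern of many muscle exons, whereas CELF proteins bind GU-rich elements and often act on the same exons in the opposite direction. In myotonic dystrophy, MBNL proteins are sequestered by expanded CUG repeats and CELF1 is raised, and muscle transcripts return to fetal splice forms. RBFOX proteins bind UGCAUG, RBM24 and RBM38 are related proteins that favour muscle splice forms and myogenic differentiation, and PTBP1 represses tissue-specific exons in many precursor and non-muscle cells.

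Some features of the libraries bear on every value below. The scaling factors of the trimmed mean of M-values (TMM) ran from 1.62 to 1.77 at E18.5, from 0.810 to 0.946 at 2 weeks and from 0.667 to 0.699 at 7 weeks, while the 20 most abundant genes took 8.38% to 11.3%, 32.2% to 35.3% and 36.3% to 37.7% of counts. Relative to scaling by total count, TMM raised the median log2 change of all genes by 0.93 between E18.5 and 2 weeks and by 0.35 between 2 and 7 weeks. Changes of members are therefore given relative to the bulk of genes (TMM-scaled CPM, where CPM is a gene's count per 1e6 counts of the library), beside the value with total-count scaling. Genes of other lists are given on the TMM scale, with the other values where they end a call. These lists, like the members, were chosen with earlier results of these data known, so their adjusted p-values are descriptive. Ratios of genes within a library depend on neither scaling, but were not corrected for the GC differences described next. Libraries also differed in the levels of GC-rich genes relative to other genes, and the cause was not tested. The GC content of a gene was summed over all its annotated transcripts. Genes of over 55% GC deviated from their age mean by a median log2 of -0.58 in E18.5 replicate 1, 0.52 in E18.5 replicate 2, -0.27 in 7 weeks replicate 1 and 0.26 in 7 weeks replicate 3, and between -0.10 and 0.11 in the other libraries. Among members, 7 weeks replicate 3 held the lowest value of its age for 8 of 10 genes, and E18.5 replicate 1 the highest for 7 of 10. The ages differed as well. From E18.5 to 2 weeks, genes of over 55% GC changed by a median log2 of 1.05 and genes of under 42% GC by -0.58. From 2 to 7 weeks these values were -0.22 and 0.32. Values with the GC trend of each library removed are given for these reasons. The removal takes out the shift between ages along with the differences within an age, and the source of that shift was not tested.

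The tissue label was checked against marker genes. All 8 fibre markers (Acta1, Ckm, Des, Ttn, Mb, Casq1, Tnnt3, Myh4) were detected, with a summed level of 9400 to 17500 CPM at E18.5, 133000 to 160000 CPM at 2 weeks and 154000 to 188000 CPM at 7 weeks, and all 8 passed the test as higher at 2 weeks than at E18.5. The 6 markers of cycling cells summed to 403 to 586 CPM at E18.5, 78.7 to 158 CPM at 2 weeks and 3.23 to 14.3 CPM at 7 weeks, with 6 of 6 lower in each interval. Of 6 markers of myoblasts and satellite cells, 2 were lower at 2 weeks and 3 lower at 7 weeks than at the age before, with sums of 154 to 270, 127 to 205 and 70.6 to 101 CPM. Fibroblast markers summed to 5960 to 12300, 4470 to 6130 and 971 to 4080 CPM, with 3 of 6 lower in each interval. White blood cell markers summed to 70.7 to 107, 40.5 to 54.3 and 15.7 to 40.9 CPM, with 2 and then 4 of 6 lower, and red blood cell markers to 242 to 1030, 146 to 756 and 92.0 to 130 CPM, with 2 and then 5 of 7 lower. Vessel markers went the other way first, from 486 to 724 CPM to 1020 to 1520 CPM with 4 of 6 higher, and then to 569 to 896 CPM with 3 of 6 lower. Markers of neurons and Schwann cells summed to 36.5 to 61.6, 65.7 to 325 and 48.7 to 76.7 CPM. Of these 7, 6 could be tested, with 2 higher and 2 lower at 2 weeks and 2 lower at 7 weeks. No marker of any list was at 0 in all libraries. Of all tested genes, 31.5% were higher and 34.2% lower at 2 weeks than at E18.5. The shares were 13.5% and 13.9% at 7 weeks relative to 2 weeks, and several of the marker counts lie near such shares. The part of the marker shifts in the member changes was not tested. In RNA of whole muscle, fewer cells of a type and less RNA per cell cannot be told apart.

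Between E18.5 and 2 weeks, Mbnl1, Rbfox1 and Rbm38 stood higher and Mbnl3, Celf1, Celf2 and Rbfox2 lower, which is 3 members higher and 4 lower past the transcriptome-wide threshold of an edgeR adjusted p of 0.05. Of all tested genes, 65.7% were past it, 31.5% higher and 34.2% lower. The 4 libraries of each age did not overlap for 7 of 10 members, and for 61.3% of all tested genes. With total-count scaling, 1 member was past the threshold as higher and 7 as lower, against 13.2% and 61.9% of all genes. Between 2 and 7 weeks, 4 members were past it as higher (Mbnl1, Celf1, Celf2, Rbfox1) and 2 as lower (Mbnl3, Ptbp1), against 27.5% of all genes, 13.5% higher and 13.9% lower. The ages did not overlap for 6 of 10 members and 33.7% of all genes, and total-count scaling left 1 member higher and 3 lower, against 4.92% and 28.0%. From E18.5 to 7 weeks, 9 members were past the threshold, 5 higher and 4 lower, against 71.4% of all genes, 34.3% higher and 37.1% lower. The ages did not overlap for 8 of 10 members and 63.4% of all genes, and with total counts 3 members were higher and 7 lower, against 11.9% and 69.0%. Since the members were chosen on these same age differences, nothing is read from how these counts compare with the background.

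**Figure D1:**
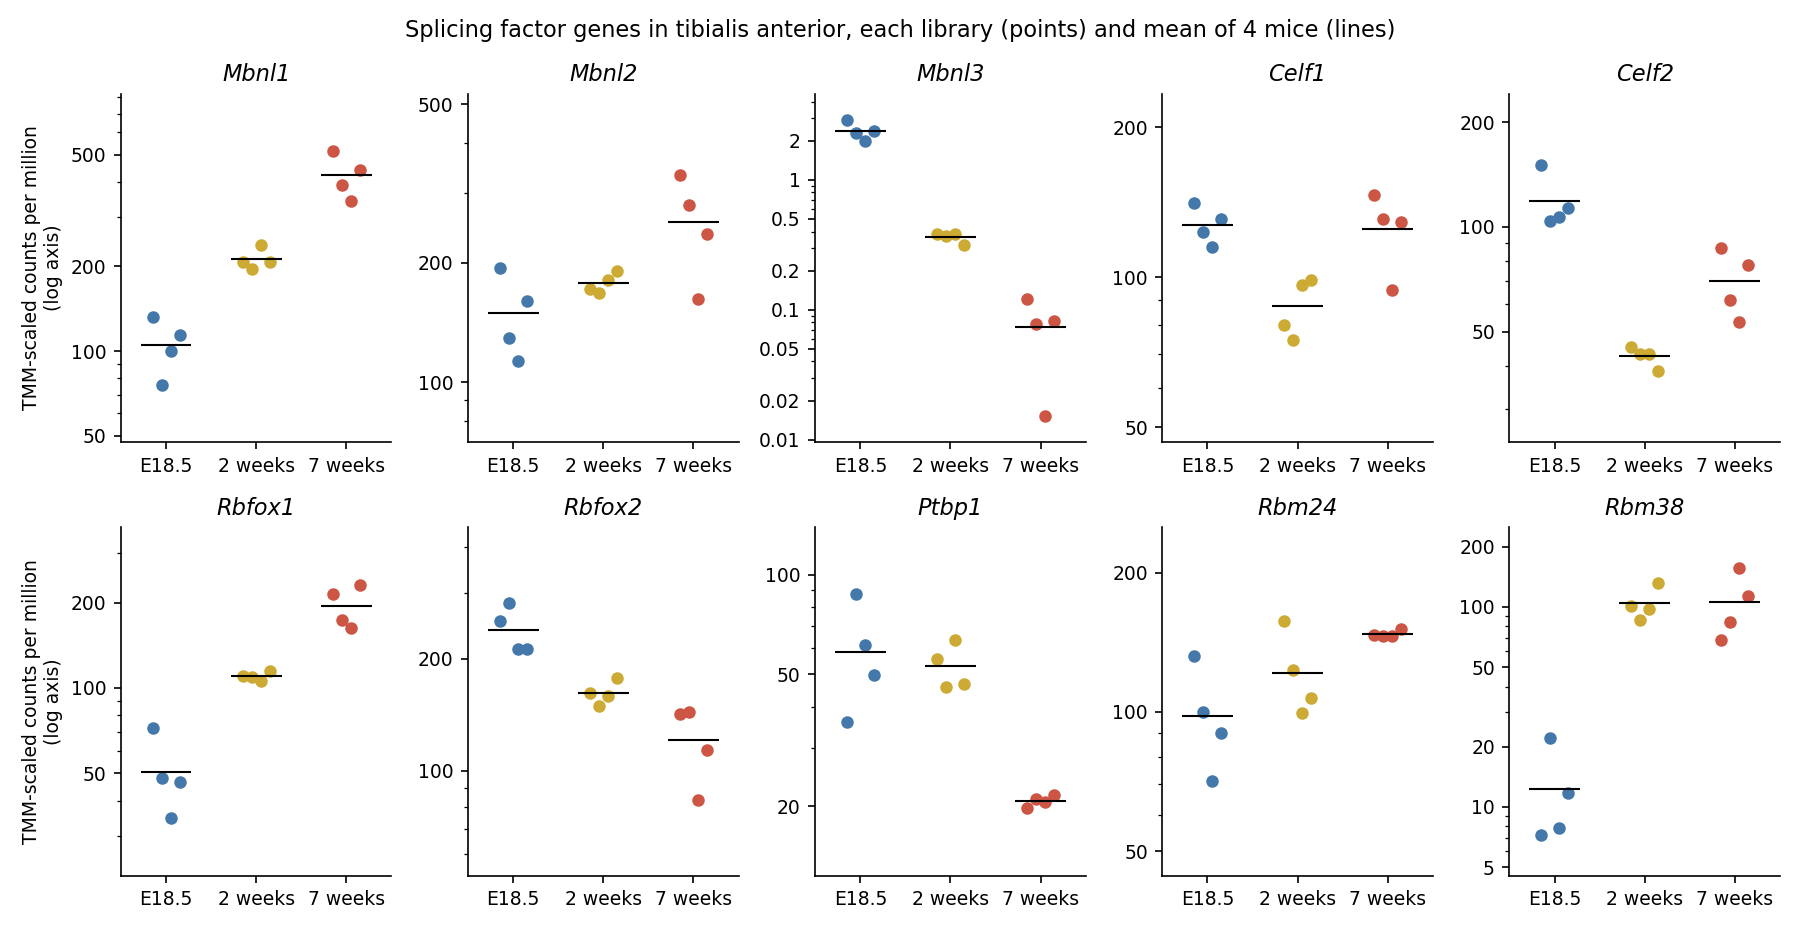
TMM-scaled CPM (log axis) of the 10 splicing factor genes in each library at E18.5, 2 weeks and 7 weeks. Points are the 4 mice of an age and lines their mean. Mbnl1 and Rbfox1 step up at each age, Mbnl3 steps down at each age, Rbm38 is low at E18.5 alone and Ptbp1 is low at 7 weeks alone.

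Mbnl1, the main MBNL gene of adult muscle, was read at 132, 75.8, 100 and 114 CPM in the 4 E18.5 libraries, at 207, 196, 238 and 207 CPM at 2 weeks, and at 516, 389, 343 and 441 CPM at 7 weeks. Each age lay wholly above the age before. The log2 fold change was 1.01 ± 0.18 (SE) between E18.5 and 2 weeks and 0.99 ± 0.18 between 2 and 7 weeks, and the mean at 7 weeks was 4.00-fold that at E18.5. With total-count scaling the first step was 0.08 ± 0.18 and not past the threshold, with ranges that overlapped, and the second was 0.65 ± 0.18. With the GC trend removed the steps were 1.57 ± 0.11 and 0.68 ± 0.11.

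Mbnl2, whose product shares many of the targets of MBNL1, showed a smaller difference on this scale. Its CPM was 194, 129, 113 and 160 at E18.5, 172, 168, 181 and 191 at 2 weeks and 333, 279, 162 and 236 at 7 weeks, and all 3 ages overlapped. The log2 fold changes of 0.26 ± 0.21 and 0.50 ± 0.21 were not past the threshold, whereas that from E18.5 to 7 weeks, 0.76 ± 0.22, was. The direction depended on the scaling, since total counts gave -0.67 ± 0.21 at 2 weeks and -0.50 ± 0.21 at 7 weeks relative to E18.5, both past the threshold. The lowest 7 weeks value was that of replicate 3, and without this library the step from 2 to 7 weeks was 0.67 and past the threshold.

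Mbnl3, which is expressed in embryonic and regenerating muscle and in placenta, was the rarest member and had the largest fall. Its counts were 417, 395, 410 and 475 at E18.5, 23, 36, 28 and 24 at 2 weeks and 6, 5, 1 and 5 at 7 weeks. These correspond to 2.00 to 2.89 CPM, 0.314 to 0.386 CPM and 0.0153 to 0.120 CPM, with no overlap between ages under either scaling. Its log2 fold change was -2.71 ± 0.31 between E18.5 and 2 weeks and -2.32 ± 0.38 between 2 and 7 weeks, or -1.96 for the latter without 7 weeks replicate 3. The mean at E18.5 was 6.55-fold that at 2 weeks. Total counts gave -3.63 ± 0.32 and -2.65 ± 0.39, and removal of the GC trend -2.16 ± 0.25 and -2.67 ± 0.32.

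Ratios within a library gave the exchange among MBNL genes without any scaling of libraries. Per kilobase (kb) of merged exons, the Mbnl1:Mbnl3 ratio was 29.7, 21.5, 32.6 and 31.2 at E18.5, 350, 343, 403 and 429 at 2 weeks, and 2790, 3250, 14600 and 3480 at 7 weeks. The ratio at 2 weeks was 13.4-fold that at E18.5. The value of 14600 rests on 1 Mbnl3 count, with a 95% exact Poisson interval of 2610 to 575000 that covers counting error only. The geometric mean at 7 weeks was 4630 with this library and 3160 without it. The Mbnl1:Mbnl2 ratio was 0.459 to 0.699 at E18.5, 0.851 to 1.03 at 2 weeks and 1.09 to 1.66 at 7 weeks, again without overlap. Mbnl1 made up 35.4% ± 3.98 (SD, n = 4) of the summed MBNL level per kb at E18.5, 48.2% ± 1.94 at 2 weeks and 57.2% ± 4.56 at 7 weeks, and Mbnl3 1.25% ± 0.139, 0.128% ± 0.0151 and 0.0143% ± 0.00683.

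The bases upstream of the annotated start are shown for 4 members with contrasting courses, namely Mbnl3, Rbfox1, Rbm24 and Rbm38. They are the 250 bases before a start in RefSeq on GRCm38.p6, 5′ to 3′ on the strand of the gene, and capitals mark each CANNTG (E-box, the element of myogenic factors such as MyoD and of many other basic helix-loop-helix proteins). A CANNTG lies in 66.2% of all 32851 such windows and in 8 of the 15 windows of members (53.3%), and TATAAA, searched on both strands, in 12.4% and 2 of 15 (13.3%). The windows are not independent, since several belong to Celf2. Its windows chr2:7396199-7396448 and chr2:7396001-7396250 overlap and hold the same CACTTG and CAAGTG. Of the 10 members, 9 have a window in the table, which holds none for Rbfox2. CAGCTG, the form preferred by myogenic factors, lies in 13.0% of all windows and in 1 of the 15 (6.67%), that of Rbfox1 shown here. The Mbnl3 window (chrX:51205991-51206240, minus strand) and the Rbm38 window (chr2:173021652-173021901, plus strand) hold no E-box, and those of Rbfox1 (chr16:7069585-7069834, plus strand) and Rbm24 (chr13:46418050-46418299, plus strand) hold 2 each. The table holds another Rbfox1 window (chr16:5884543-5884792, plus strand), which has no E-box and is not shown, and which start is used in TA was not measured. In the 4 windows shown the GC content is 59.2%, 61.6%, 48.4% and 62.4%, and the median of all windows is 52.4%.
Mbnl3: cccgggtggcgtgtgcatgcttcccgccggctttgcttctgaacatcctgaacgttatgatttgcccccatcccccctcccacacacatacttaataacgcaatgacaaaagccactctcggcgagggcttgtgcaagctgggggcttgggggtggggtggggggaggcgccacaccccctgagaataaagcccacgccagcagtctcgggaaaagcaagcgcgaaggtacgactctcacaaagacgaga
Rbfox1: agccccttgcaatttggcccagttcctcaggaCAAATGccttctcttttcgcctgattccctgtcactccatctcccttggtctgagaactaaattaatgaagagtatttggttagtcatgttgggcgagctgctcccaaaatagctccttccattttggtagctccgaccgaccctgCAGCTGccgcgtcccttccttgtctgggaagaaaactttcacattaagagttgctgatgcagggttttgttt
Rbm24: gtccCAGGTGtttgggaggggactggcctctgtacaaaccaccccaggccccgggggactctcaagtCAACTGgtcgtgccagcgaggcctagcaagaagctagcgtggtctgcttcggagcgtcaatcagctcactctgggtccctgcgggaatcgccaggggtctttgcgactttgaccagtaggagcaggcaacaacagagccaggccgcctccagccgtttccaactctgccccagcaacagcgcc
Rbm38: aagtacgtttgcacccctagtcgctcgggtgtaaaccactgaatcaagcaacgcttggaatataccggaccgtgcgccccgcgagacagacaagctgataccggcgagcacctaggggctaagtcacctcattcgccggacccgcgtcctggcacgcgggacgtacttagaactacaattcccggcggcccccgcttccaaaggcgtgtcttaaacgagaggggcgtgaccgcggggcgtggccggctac

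Celf1, whose product opposes MBNL on several developmentally regulated exons, was read at 141, 123, 115 and 131 CPM at E18.5, 80.3, 74.6, 96.6 and 98.6 CPM at 2 weeks and 146, 131, 94.4 and 129 CPM at 7 weeks. The 2 weeks libraries lay below all E18.5 libraries, with a log2 fold change of -0.54 ± 0.16. The level at 7 weeks differed from that at E18.5 by -0.02 ± 0.16, and the step back up, 0.52 ± 0.16, was past the threshold although the ranges overlapped. This second step was not past the threshold when 2 weeks replicate 1 or 2 or 7 weeks replicate 1, 2 or 4 was left out (0.44 to 0.50), with total-count scaling (0.18 ± 0.15), upper-quartile scaling (0.41 ± 0.15), no filter (0.51 ± 0.17) or the GC trend removed (0.31 ± 0.12). On the total-count scale Celf1 was lower at both later ages than at E18.5, by -1.48 ± 0.16 and -1.30 ± 0.15.

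Celf2, a close relative with a similar binding preference, had the deepest trough at 2 weeks. It was read at 151, 104, 107 and 113 CPM at E18.5, 45.3, 43.3, 43.1 and 38.6 CPM at 2 weeks and 87.2, 61.7, 53.2 and 77.6 CPM at 7 weeks. No 2 ages overlapped. The log2 fold change was -1.48 ± 0.18 between E18.5 and 2 weeks and 0.72 ± 0.17 between 2 and 7 weeks, so that the mean at 2 weeks was 0.359-fold and that at 7 weeks 0.589-fold the E18.5 mean. Total counts gave -2.40 ± 0.19 and 0.37 ± 0.18, of which the second was not past the threshold, and removal of the GC trend gave -1.0 ± 0.11 and 0.46 ± 0.11.

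Within libraries, the Celf1:Celf2 ratio per kb was 2.84 to 3.59 at E18.5, 5.22 to 7.74 at 2 weeks and 5.04 to 6.45 at 7 weeks. E18.5 stood apart from both later ages, which overlapped each other. Per kb of the longest coding transcript the Celf1:Celf2 ratio was 1.07 to 1.35, 1.96 to 2.91 and 1.89 to 2.42. Its level therefore depended on the length used, and the 2 genes stood closer by this length. The Mbnl1:Celf1 ratio, which sets an MBNL gene against a CELF gene, was 0.403, 0.264, 0.375 and 0.375 at E18.5, 1.11, 1.13, 1.06 and 0.903 at 2 weeks and 1.52, 1.27, 1.56 and 1.47 at 7 weeks. The 3 ages did not overlap, and the ratio at 7 weeks was 4.15-fold that at E18.5, most of it (2.99-fold) reached by 2 weeks. The level of this ratio, though not its change, depended on the length used, and per kb of the longest coding transcript it was 0.833 to 1.27 at E18.5 and 4.01 to 4.93 at 7 weeks.

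**Figure D2:**
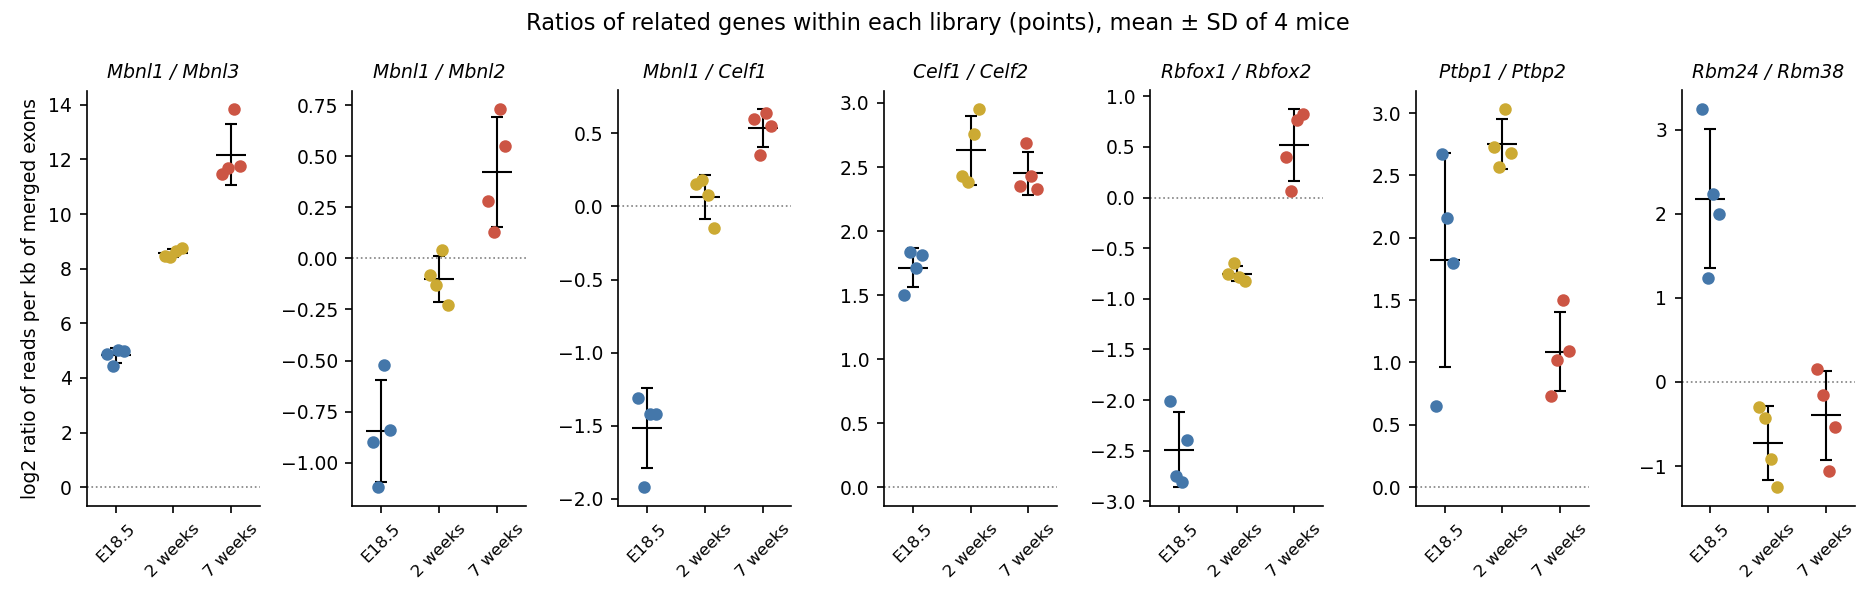
Log2 ratio of reads per kb of merged exons for 7 pairs of related genes in each library at E18.5, 2 weeks and 7 weeks. Points are the 4 mice of an age, bars the mean ± SD, and the dotted line marks equal levels per kb. Mbnl1:Mbnl3, Mbnl1:Mbnl2, Mbnl1:Celf1 and Rbfox1:Rbfox2 are higher at each later age without overlap, and Rbm24:Rbm38 is lower at both later ages than at E18.5.

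Rbfox1, the RBFOX gene of heart, skeletal muscle and neurons, was read at 72.0, 48.0, 34.8 and 46.4 CPM at E18.5, 110, 109, 106 and 115 CPM at 2 weeks and 214, 173, 163 and 231 CPM at 7 weeks. Each age lay above the age before. The log2 fold change was 1.13 ± 0.20 and then 0.83 ± 0.20, and the mean at 7 weeks was 3.89-fold that at E18.5. Total counts gave 0.21 ± 0.19 and 0.48 ± 0.19, neither past the threshold, and 0.69 ± 0.19 over the whole span, which was. With the GC trend removed the steps were 1.38 ± 0.17 and 0.62 ± 0.16. Rbfox3, the member of the family used as a marker of neurons, had at most 0.249 CPM in any library.

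Rbfox2, the more widely expressed gene of the family, went the opposite way. Its CPM was 252, 282, 212 and 212 at E18.5, 162, 149, 159 and 178 at 2 weeks and 142, 144, 83.8 and 114 at 7 weeks, without overlap between ages. The log2 fold change was -0.56 ± 0.18 between E18.5 and 2 weeks. Between 2 and 7 weeks it was -0.42 ± 0.18, not past the threshold, and -0.28 without 7 weeks replicate 3. With total counts the second step was -0.77 ± 0.18 and with the GC trend removed -0.55 ± 0.16, both past the threshold.

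The Rbfox1:Rbfox2 ratio per kb was 0.249, 0.148, 0.143 and 0.191 at E18.5, 0.594, 0.636, 0.583 and 0.567 at 2 weeks and 1.32, 1.05, 1.70 and 1.77 at 7 weeks. Rbfox1 made up 15.3% ± 3.44, 37.3% ± 1.16 and 58.7% ± 5.96 (SD, n = 4) of the pair, and the order of the 2 genes was inverted in all 4 libraries at 7 weeks relative to all 8 earlier ones. Per kb of the longest coding transcript, Rbfox1 already stood level with Rbfox2 at 2 weeks, with ratios of 1.05 to 1.17.

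Ptbp1 was read at 36.0, 87.3, 61.4 and 49.9 CPM at E18.5, 55.7, 45.9, 63.5 and 46.9 CPM at 2 weeks and 19.7, 21.0, 20.6 and 21.6 CPM at 7 weeks. The E18.5 and 2 weeks libraries overlapped, and every 7 weeks library lay below all others. The log2 fold change was -0.15 ± 0.22 between E18.5 and 2 weeks and -1.35 ± 0.22 between 2 and 7 weeks, when the mean fell 2.56-fold. The first value turned to 0.11 without E18.5 replicate 2, the library with the highest Ptbp1, and was -1.08 ± 0.23 on the total-count scale and -0.87 ± 0.14 after GC correction, both past the threshold. The annotated transcripts of Ptbp1 together hold 55.1% GC. The fall at 7 weeks was -1.70 ± 0.23 on the total-count scale and -1.26 ± 0.14 after GC correction.

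The neuronal paralog Ptbp2 and the widely expressed Ptbp3 followed another course. Ptbp2 was at 58.8, 35.3, 35.3 and 36.9 CPM at E18.5, 18.9 to 21.5 CPM at 2 weeks and 18.7 to 30.5 CPM at 7 weeks, and Ptbp3 at 46.4 to 73.0, 23.6 to 30.0 and 14.2 to 26.9 CPM. Both fell between E18.5 and 2 weeks, by 1.05 ± 0.19 (edgeR adjusted p = 2.64e-04) and by 1.22 ± 0.20 (adjusted p = 1.26e-04) on the log2 scale. Total counts gave -1.97 and -2.15, and removal of the GC trend -0.53 and -0.66. Neither passed the test between 2 and 7 weeks, with 0.34 ± 0.19 (adjusted p = 0.189) and -0.24 ± 0.20 (adjusted p = 0.396). The Ptbp1:Ptbp2 ratio per kb was 1.57 to 6.36 at E18.5, 5.95 to 8.17 at 2 weeks and 1.66 to 2.83 at 7 weeks, so the ratio at 2 weeks was 3.17-fold that at 7 weeks. At E18.5 it was lowest in replicate 1 and highest in replicate 2, the libraries furthest from their age mean in GC-rich genes. Per kb of the longest coding transcript the ratio was 0.686 to 2.77 at E18.5, 2.59 to 3.56 at 2 weeks and 0.725 to 1.23 at 7 weeks. Which gene stood higher in a library at E18.5 or 7 weeks could thus depend on the length used. With the GC trend removed, Ptbp1 changed by -0.87 ± 0.14 and Ptbp2 by -0.53 in the first interval. Between 2 and 7 weeks the values were then -1.26 ± 0.14 and 0.05.

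Rbm24, a regulator of muscle and cardiac splice forms, was read at 132, 100, 70.8 and 89.9 CPM at E18.5, 157, 123, 99.7 and 107 CPM at 2 weeks and 147, 146, 146 and 151 CPM at 7 weeks. Its 4 libraries at 7 weeks were the closest of any member at any age, with a coefficient of variation of 1.70%. The log2 fold changes of 0.31 ± 0.19 and 0.28 ± 0.19 were not past the threshold, and the first was 0.48 and past it without E18.5 replicate 1. From E18.5 to 7 weeks the value was 0.59 ± 0.19, past the threshold and without overlap. This turned to -0.68 ± 0.20 with total counts, likewise past the threshold and without overlap, and was 0.21 ± 0.21 with the GC trend removed, so no direction is given for Rbm24.

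Rbm38, also known as RNPC1, which binds AU- and GU-rich RNA and stabilises the Cdkn1a transcript, had the largest rise between E18.5 and 2 weeks under TMM and total-count scaling. It was read at 7.25, 22.1, 7.86 and 11.7 CPM at E18.5, 101, 86.0, 97.6 and 132 CPM at 2 weeks and 68.5, 84.4, 157 and 114 CPM at 7 weeks. Every later library lay above every E18.5 library, and 2 and 7 weeks overlapped. Its log2 fold change was 3.09 ± 0.36 between E18.5 and 2 weeks, or 8.51-fold, and 0.03 ± 0.33 between 2 and 7 weeks. With total counts these were 2.16 ± 0.33 and -0.32 ± 0.32. The annotated transcripts of Rbm38 together hold 61.5% GC, the most of any member. With the GC trend removed the first step was 1.61 ± 0.17 and the second 0.46 ± 0.16, now past the threshold, and from E18.5 to 7 weeks the value was then 2.07 ± 0.17, below the 2.25 ± 0.11 of Mbnl1. Without E18.5 replicate 2, where Rbm38 was highest of its age, the first step was 3.54 on the TMM scale.

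Per kb, Rbm24 stood above Rbm38 in all 4 E18.5 libraries and below it in all 4 libraries at 2 weeks, whereas in CPM it was still above Rbm38 in 3 of the 4 at 2 weeks. The Rbm24:Rbm38 ratio per kb was 9.47, 2.36, 4.68 and 3.99 at E18.5, 0.810, 0.742, 0.531 and 0.420 at 2 weeks and 1.11, 0.901, 0.481 and 0.686 at 7 weeks. Rbm38 made up 19.2% ± 8.32 of the pair at E18.5, 62.1% ± 7.05 at 2 weeks and 56.7% ± 8.74 at 7 weeks (SD, n = 4). With the GC trend removed, the log2 change in the first interval was 1.61 ± 0.17 for Rbm38 and -0.0 ± 0.21 for Rbm24.

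**Figure D3:**
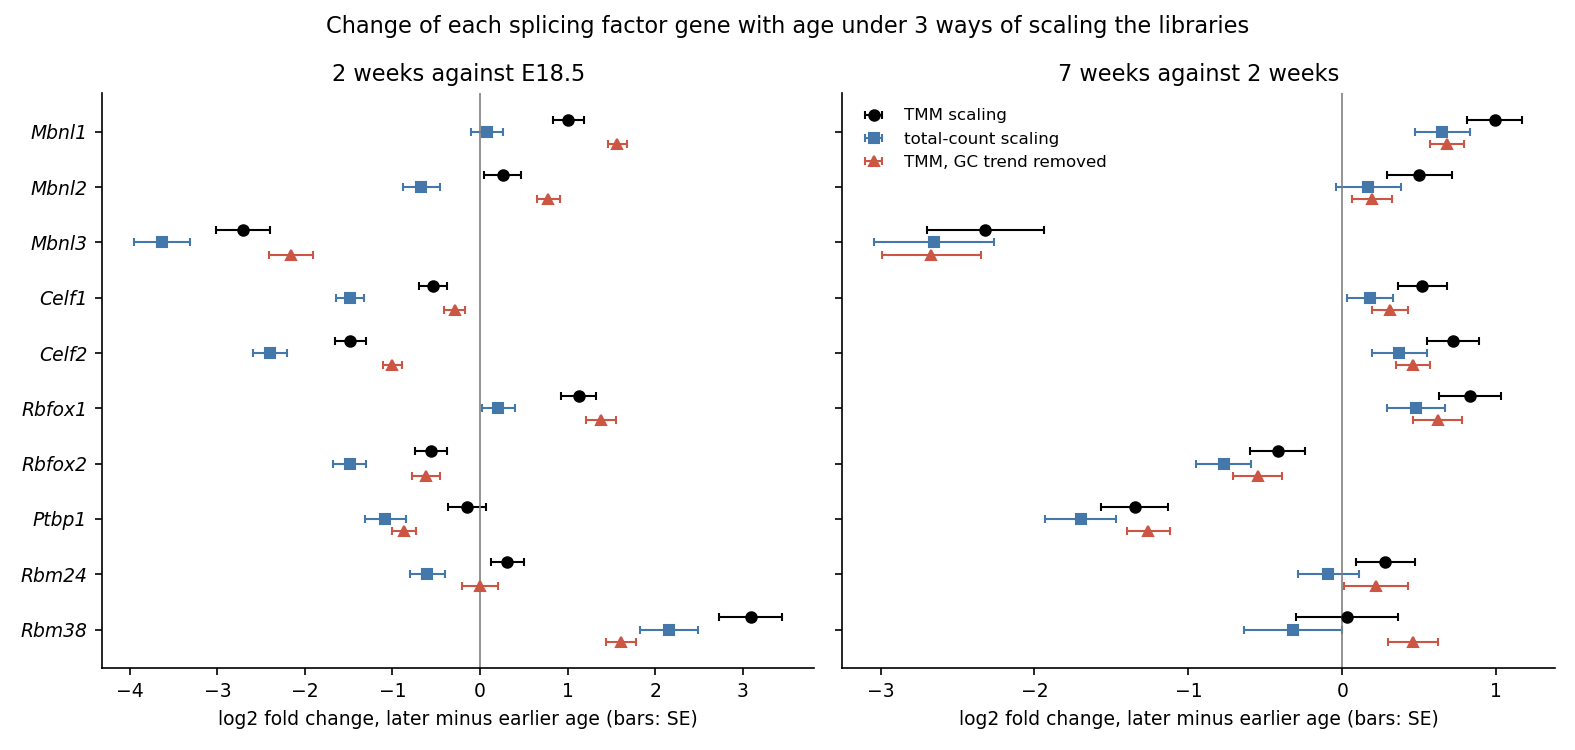
Log2 fold change of each member between E18.5 and 2 weeks and between 2 and 7 weeks, later minus earlier age, with SE bars. Circles give TMM scaling, squares total-count scaling and triangles TMM with the GC trend of each library removed. Rbm38 runs from 1.61 to 3.09 and Mbnl3 from -3.63 to -2.16 in the first interval, each on 1 side of zero, whereas Mbnl2 and Rbm24 lie on either side of it.

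The order of levels among members was set per kb of merged exons. At E18.5, Rbfox2 led with 28.2 ± 4.02 CPM per kb (SD, n = 4), above all libraries of Rbm24 (17.8 ± 4.66), and Rbm24, Celf1, Ptbp1 and Mbnl2 each overlapped the next. Mbnl1, Rbfox1, Celf2 and Rbm38, from 5.20 down to 4.26 CPM per kb, could not be ordered either. At 2 weeks Rbm38 led with 36.3 ± 6.87, above Rbm24 with 22.0 ± 4.61, and 5 members from Rbfox1 (11.3 ± 0.393) down to Celf1 each overlapped the next. At 7 weeks Rbm38 (37.0 ± 13.6) and Rbm24 (26.7 ± 0.453) overlapped, followed by Mbnl1 (20.8 ± 3.67) and Rbfox1, which overlapped too. Mbnl3 was lowest at each age, with 0.181, 0.0276 and 0.00561 CPM per kb. By the longest coding transcript, Rbfox2 at E18.5 (33.8 ± 4.83) overlapped Mbnl2 (30.3 ± 7.25), which then came next in place of Rbm24. Per kb of the longest coding transcript, Mbnl1 stood first at 7 weeks (71.5 ± 12.6), in overlap with Mbnl2 (51.3 ± 14.7), since the merged exons of Mbnl1 sum to 20.3 kb and its longest coding transcript is 5.91 kb.

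**Figure D4:**
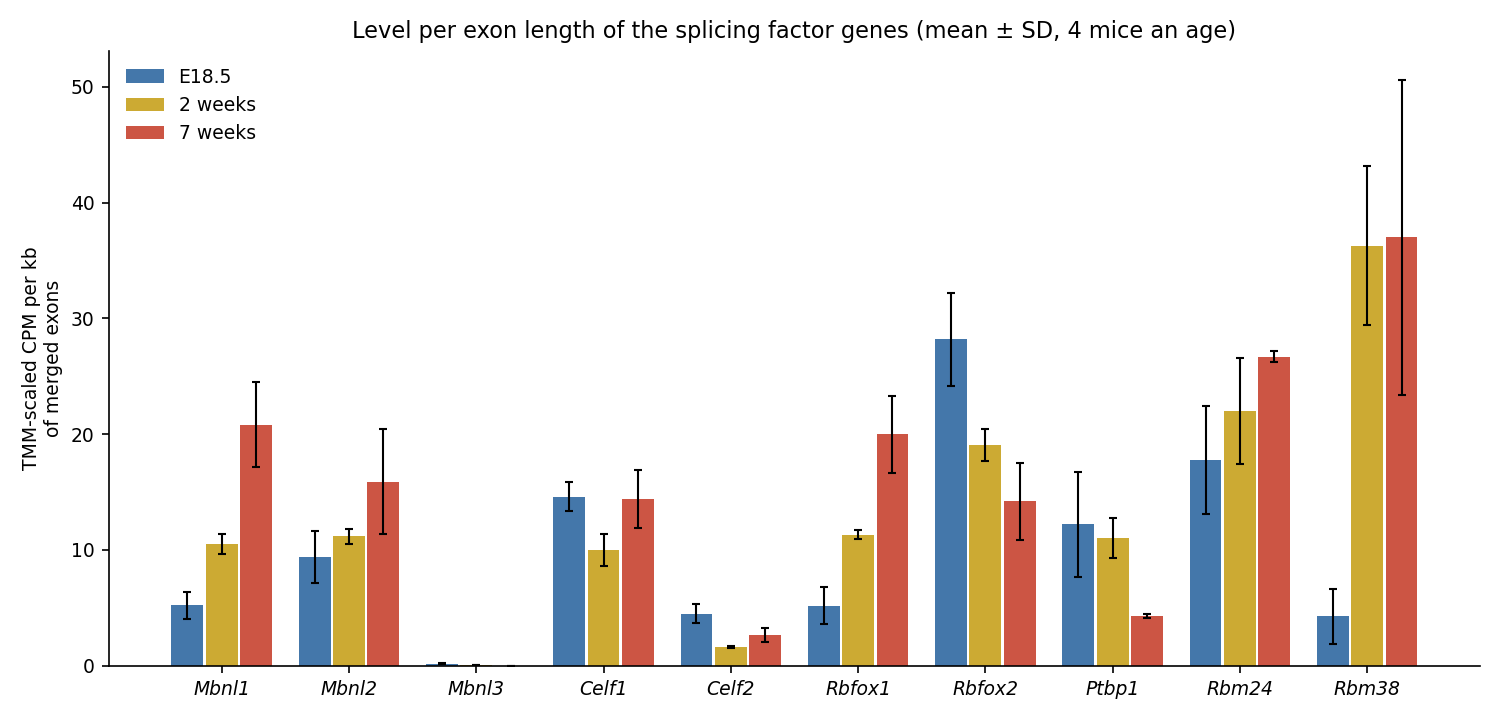
Level of each member in TMM-scaled CPM per kb of merged exons at E18.5, 2 weeks and 7 weeks. Bars are the mean of 4 mice and error bars the SD. Rbfox2 is highest at E18.5 (28.2), Rbm38 at 2 weeks (36.3) and 7 weeks (37.0), and Mbnl3 is close to zero at every age.

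Genes whose log2 CPM ran closest to a member over the 12 libraries were sought among the 4089 genes whose log2 CPM averaged 5 or more. Rbm38 ran with Tle5 and Cdc34 (Pearson r of 0.995 for both), Mbnl1 with Sypl1, Agtpbp1 and Ecpas (0.993, 0.993 and 0.992), and Mbnl3 with the imprinted genes Rian and Mest and with Adamts12 (0.991, 0.986 and 0.986). Rbfox1 ran with Ptp4a2, Jph1 and Pde4b (0.989, 0.984 and 0.984), Mbnl2 with Wdr37, Clasp2 and Dpp8 (0.986, 0.961 and 0.957), Celf2 with Tbc1d23, Ythdc1 and Tgfbr1 (0.982, 0.979 and 0.975), and Ptbp1 with the collagen chaperone Serpinh1, Itga5 and Arhgef40 (0.974, 0.971 and 0.969). The closest to Celf1 were Sel1l, Fam120a and Lrp6 (0.971, 0.965 and 0.960) and to Rbfox2 Armcx3, Atp2b4 and Adgrl2 (0.969, 0.965 and 0.964). Rbm24 had the loosest company, with Sms and Klhl31 (0.883 and 0.877). These libraries share 3 ages and their GC differences, so the correlations are a description of like courses over the same samples.

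Other regulators of splicing were examined as a list of 31 genes, of which 25 could be tested. The list also holds the kinase gene Dmpk, included for its repeat expansion in myotonic dystrophy. Between E18.5 and 2 weeks, 5 rose and 13 fell, against 31.5% and 34.2% of all tested genes, and 7 did not pass the test. Some of the genes that fell, among them Esrp2, Khdrbs2 and Elavl2, passed the filter on low counts through E18.5 alone. Nothing is therefore read from the number of falls. The median log2 change was -0.68 against -0.09 over all tested genes. With total-count scaling 2 were higher and 19 lower, against 13.2% and 61.9% (median -1.59 against -1.02). With the GC trend removed the median was -0.58 against -0.21 over all tested genes. Between 2 and 7 weeks, 5 rose and 5 fell, against 13.5% and 13.9% of all genes, and 15 did not pass (median -0.24 against -0.03). With total counts 3 were higher and 8 lower, against 4.92% and 28.0%. From E18.5 to 7 weeks, 6 were higher, 16 lower and 3 did not pass, against 34.3% and 37.1% of all genes higher and lower, and with total counts 1 was higher and 20 lower, against 11.9% and 69.0%.

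The 3 largest rises between E18.5 and 2 weeks were those of Dmpk, Rbm20 and Nova2. Dmpk, the kinase gene whose repeat expansion causes myotonic dystrophy type 1, was at 76.2, 163, 75.8 and 82.5 CPM at E18.5 and at 299 to 429 CPM at 2 weeks, a log2 change of 1.80 ± 0.26 (edgeR adjusted p = 3.74e-05) that was 0.38 and not past the threshold with the GC trend removed. Rbm20, which controls titin splicing, was at 25.9 to 42.8, 83.6 to 119 and 137 to 193 CPM at the 3 ages and rose in both intervals, by 1.52 ± 0.18 (adjusted p = 1.04e-05) and 0.80 ± 0.18 (adjusted p = 0.00557). Nova2, best known from neurons, rose by 0.97 ± 0.23 (adjusted p = 0.0022) and then fell by 0.85 ± 0.23 (adjusted p = 0.015), but its first change was 0.04 on the total-count scale and -0.02 after GC correction, and the second call was lost without 2 weeks replicate 1. Khdrbs3, a STAR-family gene of muscle and brain, rose on the TMM scale in both intervals, by 0.74 ± 0.18 (adjusted p = 0.00281) and 0.78 ± 0.18 (adjusted p = 0.00732). Neither step was past the threshold with total counts (-0.19 and 0.44), nor the first with the GC trend removed (0.38) or the second with the length trend removed.

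The 3 largest falls in the same interval were in genes of low count. Esrp2, Khdrbs2 and Elavl2 passed the filter on low counts through their E18.5 libraries alone, so the filter set the direction of their change. Esrp2, an epithelial regulator, had 15, 40, 882 and 1620 counts at E18.5, 1 to 8 at 2 weeks and 0 to 5 at 7 weeks, and its paralog Esrp1, too rare to be tested, had 9, 54, 560 and 4 counts at E18.5. The high Esrp2 counts were in replicates 3 and 4 of E18.5, and the high Esrp1 count in replicate 3, and their source was not tested. Khdrbs2 had 14 to 45 counts at E18.5 and 0 to 3 at 2 weeks, and the neuronal Elavl2 95 to 162 counts, 5 to 16 and then 0 or 1. Among abundant genes, Matr3, a cofactor of PTBP1, fell by 1.36 ± 0.18 (edgeR adjusted p = 2.08e-05) and Khdrbs1 by 0.90 ± 0.15 (adjusted p = 1.76e-04). Qk, the quaking gene of muscle and glia, was at 212 to 359, 166 to 291 and 288 to 594 CPM and rose between 2 and 7 weeks by 0.99 ± 0.27 (adjusted p = 0.0141), as did Raver2, a PTB partner, by 1.63 ± 0.32 (adjusted p = 0.00252). The Qk call was lost without 2 weeks replicate 1 or 2. Raver1, the other raver gene, is listed at 0 in all 12 libraries, and 57.2% of its exon bases are shared with Gm38431 on the same strand, so its level cannot be read from these counts.

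**Figure D5:**
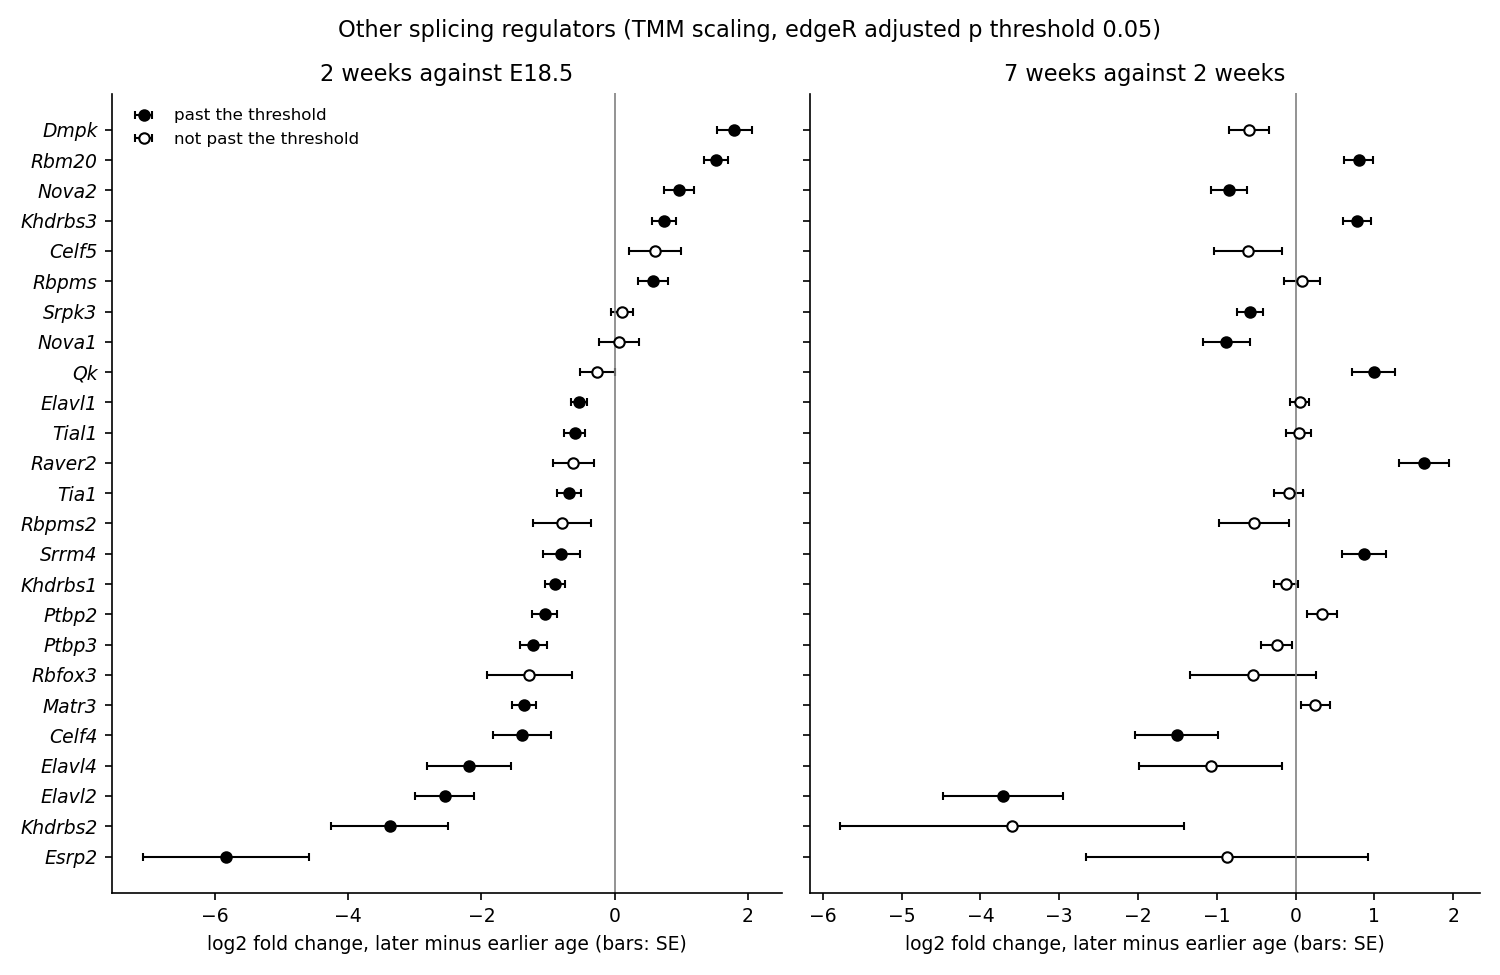
Log2 fold change with SE of the 25 tested genes of the list of other splicing regulators, between E18.5 and 2 weeks and between 2 and 7 weeks, later minus earlier age. Filled points are past an edgeR adjusted p of 0.05 and open points are not. In the first interval 13 genes fell and 5 rose, and the largest rises were those of the kinase gene Dmpk (1.80) and of Rbm20 (1.52). With the GC trend removed Dmpk was at 0.38 and not past the threshold. Esrp2, Khdrbs2 and Elavl2, with the largest falls, passed the filter on low counts through E18.5 alone. Of all tested genes, 34.2% fell and 31.5% rose in that interval.

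Genes whose transcripts are known to carry developmentally regulated splice forms were examined as a list of 21, all of them tested. These are total gene levels, in which a switch of splice form leaves no trace. Between E18.5 and 2 weeks, 15 rose and 2 fell, against 31.5% and 34.2% of all genes, and 4 did not pass the test (median log2 change 1.56 against -0.09). With total counts 11 were higher and 6 lower, against 13.2% and 61.9% (median 0.64 against -1.02). Between 2 and 7 weeks, 4 rose and 2 fell, against 13.5% and 13.9%, and 15 did not pass. With total counts 2 passed, both lower, against 4.92% of all genes higher and 28.0% lower. From E18.5 to 7 weeks, 17 were higher, 2 lower and 2 did not pass, against 34.3% and 37.1% of all genes higher and lower. With total counts 12 were higher and 5 lower, against 11.9% and 69.0%. Many of them encode parts of the fibre, whose markers rose over the same interval, and the part of fibre content in these counts was not tested.

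The largest rises between E18.5 and 2 weeks were those of Atp2a1, Clcn1 and Tpm1. Atp2a1, the fast-fibre calcium pump, went from 1150 to 2320 CPM at E18.5 to 29100 to 33400 CPM at 2 weeks, a log2 change of 4.33 ± 0.27 (edgeR adjusted p = 4.8e-08). Clcn1, the muscle chloride channel whose missplicing underlies myotonia, was at 18.1 to 29.2, 228 to 251 and 288 to 379 CPM and rose by 3.26 ± 0.17 (adjusted p = 1.02e-08) and then by 0.50 ± 0.16 (adjusted p = 0.0317). The second call was lost with total counts (0.15), upper-quartile scaling, no filter or the GC (0.45) or length trend removed, and when any 2 weeks library or 7 weeks replicate 1, 2 or 4 was left out. Tpm1, a tropomyosin, rose by 3.18 ± 0.26 (adjusted p = 4.06e-07). The 2 genes that fell were Tnnt2, the cardiac and fetal troponin T, and Rock2. Tnnt2 was at 108, 184, 153 and 102 CPM at E18.5, 6.11 to 15.5 CPM at 2 weeks and 3.01 to 7.09 CPM at 7 weeks, and fell by 3.62 ± 0.33 (adjusted p = 1.16e-06) and by 1.22 ± 0.31 (adjusted p = 0.0112). Rock2 fell by 0.54 ± 0.21 (adjusted p = 0.0324) on the TMM scale and differed by -0.03 with the GC trend removed, and its call was also lost with the length trend removed or without E18.5 replicate 1 or 2 weeks replicate 1, 2 or 4. Bin1, of which a muscle exon is a target of MBNL1, was at 251, 426, 265 and 263 CPM at E18.5, 461 to 574 CPM at 2 weeks and 584 to 798 CPM at 7 weeks, and its total level rose by 0.77 ± 0.19 (adjusted p = 0.00293) in the first interval on the TMM scale, against -0.17 on the total-count scale and 0.29 after GC correction, neither past the threshold.

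All 10 members are protein-coding genes, placed here on GRCm39. The most compact are Ptbp1 (chr10:79690261-79700605, plus strand), Rbm24 (chr13:46571589-46584575, plus strand) and Rbm38 (chr2:172862291-172876527, plus strand). Rbfox1 (chr16:5124665-7230343, plus strand) spans 2105.7 kb with 9.75 kb of merged exons and Celf2 (chr2:6544505-7514374, minus strand) 969.9 kb. Mbnl1 lies at chr3:60380102-60537183 (plus strand) and Mbnl3 at chrX:50202383-50295478 (minus strand). Exons of 5 members (Mbnl2, Rbfox1, Rbfox2, Ptbp1, Rbm38) overlap exons of other genes on the opposite strand. The strand setting of the counting is not given in the sources used here. Of those neighbours, E130317F20Rik at Ptbp1 was the most counted, with a mean of 195.3 counts against 5319.5 for Ptbp1.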

How the data were processed

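TA muscle RNA of 12 wild-type mice, 4 at each of 3 ages, was sequenced by the authors from a stranded poly(A) library kit. The authors deposited raw read counts per Ensembl gene, one column a library and no normalization. The submitters' processing notes name bcl2fastq 2.17.1.14, cutadapt 1.10, STAR 2.5.3a and HTSeq 0.6.1p1, and the build mm10, whereas the methods of the study name GRCm39. The annotation and the strand setting of the counting are not given in the sources used here. Groups came from the sample labels, and 0 columns were left unused. Nothing in the labels ties replicate numbers across ages, and p-values measure the spread between these mice.

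Genes were compared by edgeR 4.0.16 (quasi-likelihood, TMM scaling; R 4.3.3, limma 3.58.1) over all 12 libraries, with age as the only term, after filterByExpr (19276 genes kept, 36174 removed), with Benjamini-Hochberg adjustment and a threshold of 0.05. The standard error was taken from the test statistic. The biological coefficient of variation was 0.279. Intervals on counts cover counting error only. The study's own comparison used transcript-level tools. Alternatives were total-count and upper-quartile scaling, TMM without the 20 most abundant and 37 mitochondrially encoded genes, DESeq2 1.42.0, a replicate block, dropping the filter or asking for 10 counts in every library, the 8 libraries compared, removal of each library's trend over GC content or length (lowess, known for 98.7% of tested genes), and each library left out in turn. The length of the longest coding transcript was added as an alternative after seeing the data. Procedures were tested on simulated data, where edgeR called 57 of 200 genes set to a 2-fold change and 187 of 200 set to a 4-fold change. Changes of 2-fold or less can therefore miss the threshold. Fewer genes changed there than in the data, so these shares need not hold here.

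Of 55450 identifiers, 51477 matched GENCODE vM39 (GRCm39), which gave symbols, lengths and coordinates. Promoter windows are from RefSeq on GRCm38.p6, and the 2 sets of coordinates are not comparable. The members and all gene and marker lists were chosen with earlier results of these data known. Named were the members, genes of the lists with the 3 largest rises and falls past the threshold between E18.5 and 2 weeks singled out, and for each member the 3 genes of mean log2 CPM of at least 5 with the highest Pearson r, of which 1 each for Rbm38 and Rbm24 is not reported here. Qk was matched as Qki. Celf3, Celf6, Esrp1, Srrm3 and Elavl3 had too few counts to be tested, and Raver1 is listed at 0. Tables and figures were made with Python 3.11.15, pandas 2.3.3 and matplotlib 3.10.9.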

Additional observations from a re-analysis of the deposited data

Results flagged for a closer look

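In 168 sets of 4 libraries of 1 age, 13 held a library whose gap to the nearest other, over the whole range, was above Dixon's 95% critical value, and chance flags about 1 in 20 sets, or 8.4 here. Of the members, only the Mbnl1:Mbnl3 ratio at 7 weeks was among them, with a log2 ratio of 13.83 in replicate 3 against 11.4 to 11.8 in the others, which rests on 1 Mbnl3 count. In E18.5 replicate 1, Ptbp2 was at 58.8 CPM (others 35.3 to 36.9), Khdrbs1 at 126 CPM (87.3 to 93.9), Elavl1 at 58.3 CPM (51.0 to 51.8) and Matr3 at 107 CPM (60.5 to 67.3). In E18.5 replicate 2, Srpk3 was at 115 CPM (70.8 to 75.1), Dmpk at 163 CPM (75.8 to 82.5), Bin1 at 426 CPM (251 to 265) and Nfix at 52.9 CPM (27.9 to 31.9). At 7 weeks, Atp2a1 was at 38800 CPM in replicate 2 (44300 to 45200), and in replicate 3 Capzb was at 485 CPM (389 to 400), Tnnt3 at 33900 CPM (24200 to 25600) and Tpm1 at 28400 CPM (17400 to 19100). Genes of over 55% GC deviated from their age mean by a median log2 of -0.58 and 0.52 in E18.5 replicates 1 and 2 and by 0.26 in 7 weeks replicate 3 (-0.10 in replicate 2), and the part of GC content in these values was not tested.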

How the results depend on the processing

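Total-count scaling turned Mbnl2 to -0.67 at 2 weeks and -0.50 at 7 weeks and Rbm24 to -0.60 and -0.68 relative to E18.5, all 4 past the threshold, since this scaling lowers the median of all genes. Of the member fold changes under all alternatives, 618 kept their side of the threshold (9 of them, of Celf1 and Rbm38 near zero, with another sign), 17 were no longer past it, 14 came to pass it, 4 not past it moved otherwise and 4 turned. Rbfox2 between 2 and 7 weeks passed with total counts, upper-quartile scaling, only the 8 libraries compared and GC or length trend removed (-0.77 to -0.46), and Rbm24 from E18.5 to 7 weeks did not pass with upper-quartile scaling, at least 10 counts in every library, or GC or length trend removed (0.21 to 0.42). The cause of these shifts was not tested. Mbnl3 gave no value with at least 10 counts in every library.

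Of the 198 counts of calls in the alternatives, 191 stayed within 1.5 times the reported one. In the main fit, 65.7%, 27.5% and 71.4% of all tested genes passed in the 3 comparisons. That share is not given here for the alternatives, so the counts below are set only beside the reported ones. For other splicing regulators from E18.5 to 7 weeks, 14 of 18 genes passed with at least 10 counts in every library, where fewer genes were tested. Between 2 and 7 weeks their count ran from 5 to 10 with 1 library left out, and was 5 without 2 weeks replicate 1 and 6 without 2 weeks replicate 2. For genes with regulated splice forms in that interval it was 2 with total counts, 3 with the length trend removed and 2 to 9 with 1 library left out, with 2 without 2 weeks replicate 1 and 2 without 2 weeks replicate 2. With the replicate number as a block, 7, 6 and 9 members, 18, 8 and 22 other regulators and 17, 5 and 19 genes with regulated splice forms passed in the 3 comparisons. Correlations of deviations between same-numbered libraries ran from -0.283 to 0.514, over 0.1 in 5 of 12 pairs, so the numbers were not taken to pair the mice. Counts of 6 or fewer Mbnl3 reads at 7 weeks limit its level at that age.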
